A study of Mus musculus with 23 samples.

Results

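Transcripts of 10 genes that mark or control blood stem cells were followed in mouse bone marrow (BM) in which a single tyrosine of STAT5B was either intact (wild type, WT) or replaced by histidine (Y665H) or phenylalanine (Y665F). The genes were Hlf, Mecom, Meis1, Hoxa9, Mllt3, Procr, Fgd5, Cd34, Ifitm1 and Ifitm3. They were chosen by symbol, without reference to a threshold on their levels, and are 10 of the 32285 genes in the matrices. Earlier results of these data were known when they were chosen. Single-cell RNA libraries were available from 6 BM samples, with 2 libraries each for WT, Y665H and Y665F, all from C57BL/6 mice of 2 months of age. WT served as the control. The labels of the BM libraries give no zygosity for either mutation and do not say whether the replicates of a genotype came from separate mice. Sex-linked transcripts differed between the replicates of every genotype, so these were not repeats of 1 mouse, and p-values measure the spread between 1 female and 1 male library per genotype. Levels are counts of unique molecular identifiers (UMIs) of a gene scaled to the total UMIs of the library or gate (CPM), and values are given for replicates 1 and 2 in that order.

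Blood stem cells sit at the top of hematopoiesis, and they renew themselves while giving rise to the myeloid, erythroid, megakaryocytic and lymphoid lineages. Transcription factors such as HLF, MECOM and MEIS1 hold the stem cell program, and their transcripts decline as cells commit to a lineage. STAT5 proteins are activated by the receptors for thrombopoietin, erythropoietin, GM-CSF and interleukins, enter the nucleus as dimers and bind a palindromic element called GAS. KIT, the receptor for stem cell factor, is carried by stem cells and by early progenitors of several lineages, so a Kit UMI marks a broad progenitor compartment rather than stem cells alone.

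The libraries held 4420 and 11416 barcodes in WT, 10595 and 12228 in Y665H, and 18592 and 18742 in Y665F. Total UMIs ranged from 16399123 to 55768078, and median UMIs per barcode from 1617 to 2809. Replicate 1 of each genotype had female and replicate 2 male transcripts (Xist at 244 to 895 CPM against at most 0.59 CPM, and Y-linked genes summed to at most 0.0897 CPM against 64.3 to 109 CPM), so the replicate number and sex cannot be told apart. Pairs of libraries shared between 80 and 476 cell barcodes. The deposited barcodes of Y665F replicate 2 held no fewer than 1179 UMIs, against 500 in the other 5 libraries. The marrow label was borne out by markers of the granulocyte-monocyte lineage (5 genes including Mpo and Elane, summed level between 2015 and 2908 CPM) in all 6 libraries. Hemoglobin genes summed to 100 and 72.0 CPM in WT, 116 and 42.6 in Y665H, and 16.5 and 28.1 in Y665F. Whether the suspensions held whole marrow or a selected part of it was not tested. The makeup of the libraries differed by genotype. Erythroid markers (5 genes including Klf1 and Epor) summed to 3861 and 4699 CPM in WT, to 5589 and 4081 in Y665H and to 706 and 459 in Y665F, while mature neutrophil markers (6 genes including S100a8) summed to 37.9 and 142 CPM, to 195 and 138, and to 3394 and 1460. Megakaryocyte markers (5 genes including Pf4) summed to 110 and 176 CPM in WT, 147 and 153 in Y665H, and 608 and 793 in Y665F. In summed RNA of a tissue, more cells of a type and more RNA per cell cannot be told apart, and the part of these shifts in the results on the 10 genes was not tested.

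STAT proteins act through short elements that lie near promoters and also elsewhere, and only start sites were searched here. Windows of 4 of the 10 genes are shown, Hlf, Mecom and both Ifitm genes, which were called between Y665F and WT. Meis1 and Fgd5 were called too, but their windows held no match and are not shown. All 10 genes matched a promoter in RefSeq (GRCm38.p6), with 12 entries in all, each covering 250 bases before and 50 bases after a start. A GAS element was searched as TTCNNNGAA, which reads the same on both strands. An interferon-stimulated response element (ISRE), an element found at genes that interferon induces, was searched as GAAANNGAAA on both strands. GAS letters stood in 8.3% and ISRE letters in 3.44% of all 32851 promoters of this length. Among the 10 genes, GAS letters were found in 1 (Ifitm3) and ISRE letters in 2 (Ifitm3 and Mecom). Capitals mark these matches in the following 4 windows, which lie at chr7:141010695-141010994 (minus strand) for Ifitm3, chr7:140967826-140968125 (plus strand) for Ifitm1, chr3:30509710-30510009 (minus strand) for the first of the Mecom entries, and chr11:90390868-90391167 (minus strand) for Hlf.
Ifitm3: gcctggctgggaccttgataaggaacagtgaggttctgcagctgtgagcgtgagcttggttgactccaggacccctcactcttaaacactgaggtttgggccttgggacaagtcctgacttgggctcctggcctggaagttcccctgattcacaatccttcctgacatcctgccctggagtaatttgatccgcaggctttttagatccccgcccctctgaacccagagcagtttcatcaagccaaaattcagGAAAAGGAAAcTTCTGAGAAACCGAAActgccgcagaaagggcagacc
Ifitm1: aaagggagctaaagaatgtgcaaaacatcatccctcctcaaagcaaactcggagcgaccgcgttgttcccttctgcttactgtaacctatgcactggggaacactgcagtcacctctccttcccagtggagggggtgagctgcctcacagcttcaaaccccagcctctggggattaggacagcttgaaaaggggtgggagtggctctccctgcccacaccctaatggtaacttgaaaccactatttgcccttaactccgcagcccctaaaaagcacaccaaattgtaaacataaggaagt
Mecom: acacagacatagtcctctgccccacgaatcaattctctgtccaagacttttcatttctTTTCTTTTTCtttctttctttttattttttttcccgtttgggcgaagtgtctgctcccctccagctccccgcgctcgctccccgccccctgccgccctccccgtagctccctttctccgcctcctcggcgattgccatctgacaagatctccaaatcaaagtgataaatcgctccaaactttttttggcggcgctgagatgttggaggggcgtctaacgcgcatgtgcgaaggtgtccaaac
Hlf: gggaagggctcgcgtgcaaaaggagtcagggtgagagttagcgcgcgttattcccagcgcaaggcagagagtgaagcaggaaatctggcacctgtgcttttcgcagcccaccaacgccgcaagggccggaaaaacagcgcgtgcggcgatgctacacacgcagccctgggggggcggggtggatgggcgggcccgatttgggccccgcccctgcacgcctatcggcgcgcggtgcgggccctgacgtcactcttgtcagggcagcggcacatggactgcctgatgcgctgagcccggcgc
In the Ifitm3 window, both ISRE matches and the GAS match lie just downstream of the start, the GAS match beginning at position 13 and the ISRE matches at positions 2 and 19. The last letters of the GAS match are also the first letters of the second ISRE match, and the capitals therefore run together. The Mecom match lies on the opposite strand, beginning at position -192. A match is a string of letters and not a bound site, and the absence of one in a window of this length says nothing about elements elsewhere.

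In Y665F marrow, 6 of the 10 genes rose against WT when all barcodes were summed, namely Hlf, Mecom, Meis1, Fgd5, Ifitm1 and Ifitm3, and none fell. The increase was between 1.43 and 2.33 on the log2 scale. A gene was called at an edgeR quasi-likelihood p below 0.05 after Benjamini-Hochberg adjustment over all genes tested together with a log2 fold change above 1 in size. By that rule 16.2% of the 13936 genes tested were called in this comparison, and 7.85% were called as higher in Y665F. The median log2 fold change was 1.48 over the 10 genes and 0.03 over all genes. The 2 Y665F libraries lay above both WT libraries in CPM for 9 of the 10 genes, a pattern seen for 38.8% of all genes tested. Mllt3 was the exception, with both Y665F libraries below both WT libraries (24.7% of all genes). CPM leaves out the library scaling factors (TMM) that the edgeR fits use. With these factors applied, Hoxa9 overlapped between Y665F and WT, and the shares over all genes were not computed that way.

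Among the transcription factors, Hlf (chr11:90336536-90390895), a PAR bZIP factor whose transcript is concentrated in stem cells, stood at 24.3 and 25.3 CPM in WT, 12.7 and 19.8 in Y665H, and 69.2 and 113 in Y665F. Both Y665F libraries were far above the other 4, and both Y665H libraries were below both WT libraries in CPM. With the TMM factors applied, Y665H and WT overlapped. The increase over WT was 1.70 on the log2 scale (SE 0.272, edgeR adjusted p = 0.000555, n = 2 per genotype). Mecom (chr3:29951296-30548008), which encodes the zinc finger factor EVI1 needed for stem cell maintenance, was sparse, at 4.76 and 3.54 CPM in WT, 2.04 and 2.503 in Y665H, and 17.3 and 24.2 in Y665F. Its groups did not overlap, and the Y665F increase of 2.17 (SE 0.263) had an edgeR adjusted p of 0.000117. Genes on the opposite strand overlap Mecom (Mecomos), Fgd5 (4930466I24Rik), Meis1 (Gm16140 and Gm16141) and Cd34 (Gm16897), and their reads could not be told apart if strand was not used in counting, which the sources used here do not say.

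Meis1 (chr11:18879817-19018985), a homeobox partner of HOX proteins, was measured at 36.8 and 22.1 CPM in WT, 14.98 and 20.8 in Y665H, and 76.0 and 97.5 in Y665F. The Y665F libraries stood apart above the rest, and the log2 difference from WT was 1.43 (SE 0.237, edgeR adjusted p = 0.000672). A share of 9.51% of the transcript words of Meis1 also occurs in other annotated genes, mostly in Gm37818, so a small part of its count is uncertain. Hoxa9 (chr6:52223100-52231089), a homeobox gene of stem and myeloid progenitor cells, did not follow Meis1. Its level was 32.3 and 33.3 CPM in WT, 23.6 and 25.99 in Y665H, and 36.0 and 40.6 in Y665F. The CPM ranges were separate but close together, and with the TMM factors applied WT overlapped both mutants. The fitted log2 difference between Y665F and WT was 0.05 (SE 0.209, edgeR adjusted p = 0.878). Mllt3 (chr4:87769925-88033364), whose product AF9 belongs to transcription elongation complexes and sustains human stem cells in culture, was the single gene with lower levels in Y665F than in WT, at 47.6 and 33.9 CPM in WT, 44.9 and 29.0 in Y665H, and 33.3 and 31.8 in Y665F. The margin between the lowest WT and the highest Y665F library was small, and the log2 difference of -0.46 did not pass the test (SE 0.221, edgeR adjusted p = 0.124).

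**Figure D1:**
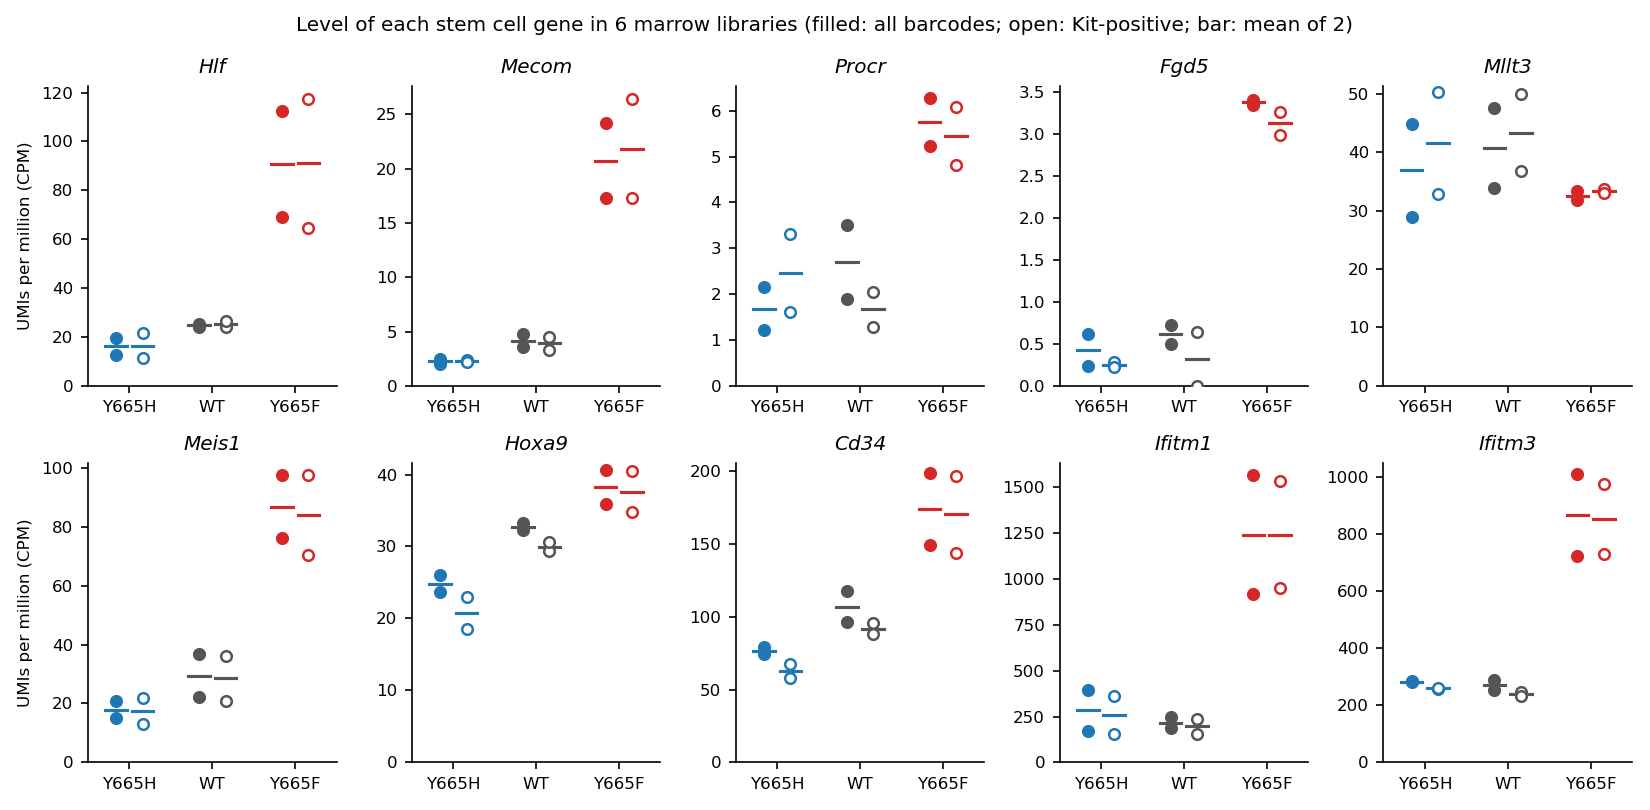
Level of each of the 10 genes in the 6 BM libraries, in CPM over all barcodes, with 1 point per library and colors for Y665H, WT and Y665F. Hlf, Mecom, Fgd5, Meis1, Ifitm1 and Ifitm3 were highest in both Y665F libraries by a wide margin (Hlf 69.2 and 113 against 12.7 to 25.3 CPM elsewhere), whereas the genotypes lay close together for Hoxa9 and Mllt3.

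Among Fgd5, Procr and Cd34, Fgd5 changed most. Fgd5 (chr6:91978878-92076004), a guanine nucleotide exchange factor used to mark stem cells in reporter mice and also found in endothelium, had 12 and 14 UMIs in WT (0.732 and 0.506 CPM), 10 and 16 in Y665H (0.243 and 0.616 CPM), and 190 and 166 in Y665F (3.41 and 3.36 CPM). It was close to the limit of detection outside Y665F, where both libraries were alike and well above the rest. The log2 increase over WT was 2.31 (SE 0.431, edgeR adjusted p = 0.00143). Procr (chr2:155751117-155755471), the protein C receptor that marks stem cells and endothelium, stood at 1.89 and 3.51 CPM in WT, 1.21 and 2.16 in Y665H, and 5.24 and 6.29 in Y665F. Both Y665F libraries were highest, but the WT libraries differed from each other, and the log2 difference of 0.85 missed the threshold (SE 0.371, edgeR adjusted p = 0.0919). It was called as higher when WT replicate 2 was left out, at 1.61. Markers of endothelium (7 genes including Cdh5 and Kdr), which can carry both Fgd5 and Procr, summed to 38.5 and 27.3 CPM in WT, 20.6 and 22.0 in Y665H, and 64.3 and 70.6 in Y665F, and their part in these results was not tested. Cd34 (chr1:194938819-194961279), a sialomucin of progenitors that mouse long-term stem cells carry little of, was measured at 118 and 96.6 CPM in WT, 79.2 and 74.2 in Y665H, and 149 and 199 in Y665F. The 3 genotypes did not overlap, while the log2 difference between Y665F and WT of 0.54 did not pass the test (SE 0.225, edgeR adjusted p = 0.0780).

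Ifitm1 and Ifitm3 encode small membrane proteins that restrict virus entry, and both are carried at high levels by stem cells without infection. Ifitm1 (chr7:140967221-140969825) stood at 185 and 248 CPM in WT, 172 and 395 in Y665H, and 1565 and 916 in Y665F. The Y665F libraries were the highest but differed from each other, and Y665H replicate 2 was above both WT libraries. The Y665F increase was 2.33 on the log2 scale (SE 0.402, edgeR adjusted p = 0.000885). Ifitm3 (chr7:141009586-141010770), whose window above holds both elements, was measured at 289 and 254 CPM in WT, 286 and 281 in Y665H, and 1013 and 724 in Y665F. WT and Y665H lay within the same narrow range of CPM, and the Y665F increase was 1.52 (SE 0.268, edgeR adjusted p = 0.00102), a call that was lost when every barcode was thinned to 1000 UMIs, at 1.22. Of the transcript words of Ifitm3 and Ifitm1, 20.5% and 11.6% also occur in other genes, mostly in Gm7676, so both counts carry some uncertainty.

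In the comparison of Y665H with WT, none of the 10 genes was called by edgeR, and DESeq2 called none either. The same held for the rest of the transcriptome, as 0% of the 13936 genes were called, although 756 had an edgeR p below 0.05 before adjustment. Among the 10 genes only Mecom was in that number (log2 difference -0.59, edgeR adjusted p = 0.864). Differences ranged from that value to 0.63 for Ifitm1, with a median of -0.26 against -0.01 over all genes. Hlf, Mecom, Meis1, Hoxa9 and Cd34 were below both WT libraries in both Y665H libraries, which makes 5 of 10 genes where 33.8% of all genes showed that pattern, and 0 of 10 lay above both (4.95% of all genes). These counts use CPM without the TMM factors. With the factors applied, Mecom and Cd34 stayed below, Hlf, Meis1 and Hoxa9 overlapped WT, and Ifitm3 lay above both WT libraries. The shares over all genes were not computed that way.

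Set directly against each other, Y665F and Y665H differed in 7 genes, with all 7 higher in Y665F. By the same rule 25.5% of all genes were called in this comparison and 13.4% were called as higher in Y665F. The log2 increases were 2.05 for Hlf, 2.76 for Mecom, 2.62 for Fgd5, 1.85 for Meis1, 1.36 for Procr, 1.70 for Ifitm1 and 1.19 for Ifitm3. The median over the 10 genes was 1.53, against 0.07 over all genes. Cd34 had an edgeR adjusted p of 0.0136 with a log2 difference of 0.75, below the fold required, and Mllt3 had 0.0363 with -0.60. The Y665H libraries entered both this comparison and the one with WT, and the Y665F libraries both this one and theirs with WT, so the 3 sets of values are not independent. Without Y665H replicate 1, in which Hlf, Mecom, Procr, Fgd5, Meis1 and Hoxa9 were lowest of all libraries, 4 of the 7 calls remained, and Procr, Ifitm1 and Ifitm3 were lost.

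**Figure D2:**
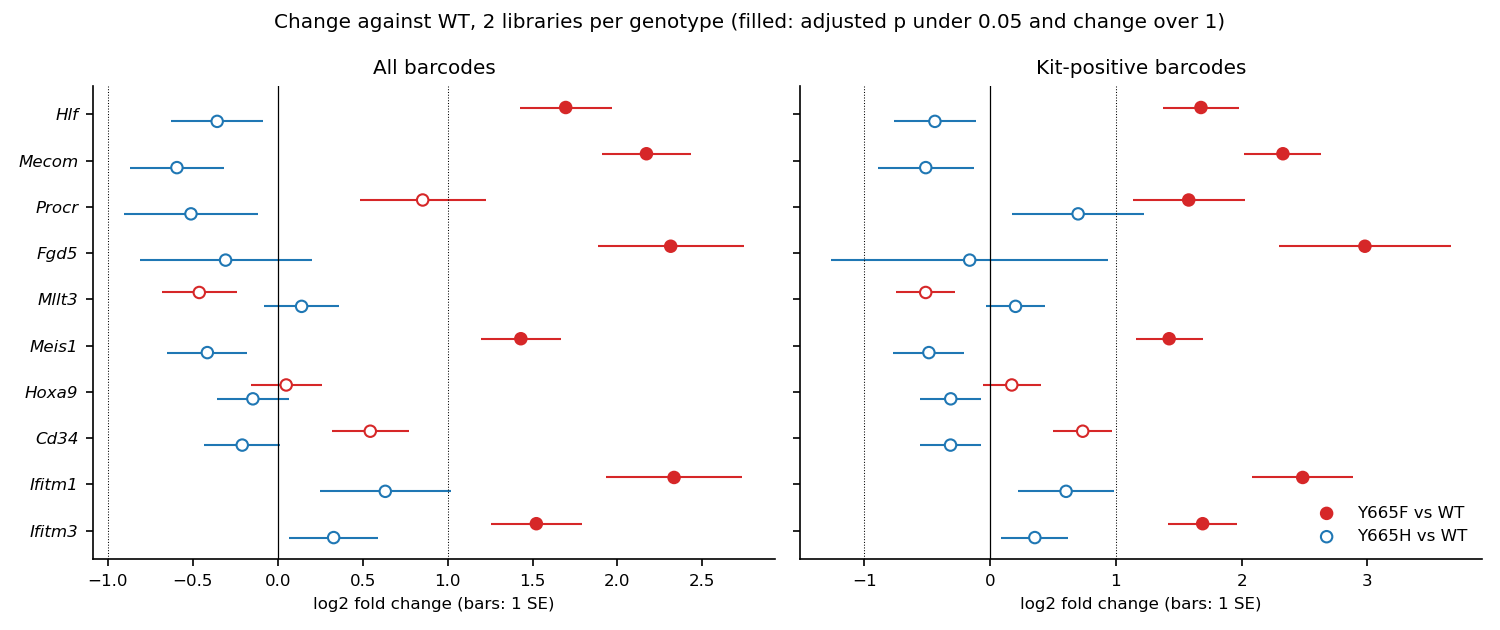
Log2 fold changes of the 10 genes from the edgeR fits, with bars of 1 standard error, for the comparisons over all barcodes and over Kit-positive barcodes (n = 2 libraries per genotype). Y665F differs from WT by 1.43 to 2.33 for the 6 genes called over all barcodes, and differences between Y665H and WT lie between -0.59 and 0.63.

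The same comparison was then made within barcodes that held at least 1 Kit UMI. Kit itself stood at 103 and 64.1 CPM in WT, 59.3 and 71.6 in Y665H, and 141 and 201 in Y665F over all barcodes. In Kit-positive barcodes, 7 genes rose in Y665F against WT, where 14.6% of the 11908 genes tested were called and 7.22% as higher. The median over the 10 genes was 1.63 and that over all genes 0.04. Hlf was measured at 24.2 and 26.5 CPM in WT, 11.2 and 21.6 in Y665H, and 64.6 and 117 in Y665F. These are almost the values over all barcodes, and the log2 increase was 1.68 (SE 0.306, edgeR adjusted p = 0.00117). Mecom increased by 2.33, Meis1 by 1.42, Ifitm1 by 2.49 and Ifitm3 by 1.69. Procr, with 8 and 10 UMIs in WT, 17 and 15 in Y665H, and 109 and 134 in Y665F, passed here with an increase of 1.58 (edgeR adjusted p = 0.0157), a call that was lost without WT replicate 1, without Y665F replicate 2 or without the barcodes of highest UMI count. Fgd5 had 4 and 0 UMIs in WT and 74 and 66 in Y665F, and its fitted increase of 2.98 rests on those few WT molecules, running from 2.26 to 8.24 over the alternatives. With 3 and 1 UMIs in Y665H as well, it could pass the filter on low counts only through Y665F, and without it 6 genes were called. Cd34 had an edgeR adjusted p of 0.0299 with a log2 difference of 0.74, below the fold required. Hoxa9 (0.17) and Mllt3 (-0.51) did not pass. Both Y665F libraries were above both WT libraries in CPM for 9 of the 10 genes (38.2% of all genes) and below them for Mllt3 (24.1%). With the TMM factors applied, Hoxa9 overlapped here too. When each barcode was thinned to 1000 UMIs before the sums were made, Procr and Fgd5 had too few UMIs for the test and the other 5 calls were lost, at log2 differences of 1.06 for Hlf, 1.82 for Mecom, 0.56 for Meis1, 2.03 for Ifitm1 and 1.60 for Ifitm3, while 12 genes of the whole transcriptome were called in place of 1743.

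In Kit-positive barcodes of Y665H, none of the 10 genes differed from WT by edgeR or DESeq2 (0% of all genes by edgeR). None had an unadjusted edgeR p below 0.05, against 615 of the 11908 genes. The values lay between -0.51 for Mecom and 0.70 for Procr. Hlf, Mecom, Hoxa9 and Cd34 were lower in both Y665H libraries than in both WT libraries, which is 4 of 10 genes against 30.3% of all genes, and Ifitm3 was higher in both, which is 1 of 10 against 5.41%. These counts use CPM without the TMM factors. With the factors applied, Hlf and Hoxa9 overlapped WT. Between Y665F and Y665H, 7 of the 10 were called as higher, where 25.3% of all genes were called and 13.9% as higher. The 7 include Fgd5, which could pass the filter on low counts only through Y665F. Cd34, with a log2 difference of 1.05, was among the 7 here and Procr, at 0.88, was not. The Cd34 call was lost under 6 of 14 alternative settings. Without Y665H replicate 1 the calls of Cd34, Fgd5 and Ifitm1 were lost. After thinning, when Fgd5 could not be tested, only the call of Mecom remained. At that depth Mecom could not pass the filter on low counts without the Y665F libraries.

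The Kit gate did little to concentrate these transcripts. Kit-positive barcodes were deeper, with medians of 2327 and 2263 UMIs in WT, 3992.5 and 2002 in Y665H, and 2921 and 2425 in Y665F. Kit-negative barcodes had 1458 and 1783.5, 2597 and 1576, and 2084 and 2150. A barcode without a Kit UMI can be one in which Kit was missed, so both gates may hold the same kinds of cell. This limits the ratios and the interaction that follow. In WT, 37.7% and 17.6% of all UMIs were in Kit-positive barcodes, and the gene with the highest share among the 10, Mllt3, had 39.6% and 19.1% of its UMIs there. In the other 4 libraries the lowest and the highest of the 10 genes lay at 18.6% and 34.0% around 25.5%, 6.25% and 26.8% around 17.5% (Y665H), 37.3% and 41.0% around 40.6%, and 39.8% and 48.7% around 44.6% (Y665F). The ratio of Hlf CPM in Kit-positive to that in Kit-negative barcodes was between 0.855 and 1.11 in the 6 libraries. Whether the Y665F change differed between Kit-positive and Kit-negative barcodes was tested as an interaction. None of the 10 genes was called by edgeR, with differences in log2 fold change from -0.07 for Mllt3 to 0.85 for Fgd5, and 0.00731% of all genes were called. Before adjustment, Cd34 (0.25), Ifitm1 (0.24) and Ifitm3 (0.22) had an edgeR p below 0.05, and their adjusted p lay between 0.344 and 0.379. Over all genes, 1180 of 13687 had an edgeR p below 0.05 in this test.

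Kit-positive barcodes were next divided by 6 lists of lineage markers. A barcode was given to the list with most UMIs where that list had 3 or more, and was called lineage-low where every list had fewer. Among Kit-positive barcodes of WT, 35.0% and 43.2% were erythroid, against 56.8% and 47.2% in Y665H and 15.7% and 6.81% in Y665F. Those of the granulocyte-monocyte list made up 34.2% and 21.2%, 24.1% and 21.5%, and 51.6% and 58.0%. Lineage-low barcodes were 24.7% and 28.5% in WT, 13.5% and 25.3% in Y665H, and 23.1% and 23.5% in Y665F. Lineage-low barcodes are also shallow, with medians of 1062 and 1273.5 UMIs in WT, 996 and 1094 in Y665H, and 1604 and 1721 in Y665F, so the gate selects in part for low depth.

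Of the lineage-low, granulocyte-monocyte and erythroid barcodes, Hlf was highest in the lineage-low and lowest in the erythroid gate in all 6 libraries. In lineage-low barcodes it stood at 81.8 and 83.0 CPM in WT, 53.3 and 53.4 in Y665H, and 127 and 165 in Y665F, with no overlap between genotypes. In erythroid barcodes it was at 3.401 and 7.83, 3.21 and 6.78, and 13.1 and 63.4 CPM. B cell barcodes (2 or more Cd79a UMIs and no Kit UMI), a reference for free transcripts, held Hlf at 43.2 and 94.1 CPM in Y665F. The erythroid values of Y665F were below these. In granulocyte-monocyte barcodes the values were 66.2 and 43.3 CPM in WT, 30.9 and 38.0 in Y665H, and 82.4 and 120 in Y665F, again highest in Y665F. Mllt3, in contrast, was well represented in erythroid barcodes, at 50.8 and 42.9 CPM in WT, 58.8 and 36.8 in Y665H, and 38.3 and 36.2 in Y665F. In lineage-low barcodes it stood at 79.5 and 44.7, 37.3 and 37.6, and 56.2 and 41.9 CPM, so neither gate was higher in all libraries. How much of either gene's difference over all barcodes came with the erythroid share was not tested.

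Within lineage-low barcodes, none of the 8 genes that could be tested was called between Y665F and WT by edgeR, where 0.447% of 7390 genes were called. Procr and Fgd5 had too few UMIs for the test. Of the 8, 4 had an edgeR p below 0.05 before adjustment (994 of the 7390 genes), and DESeq2 called 2, Ifitm1 and Ifitm3 (32 of the 7390 genes). The largest difference was that of Ifitm1 at 1.96, with 282 and 541 CPM in WT, 485 and 821 in Y665H, and 1965 and 1067 in Y665F (edgeR adjusted p = 0.122). Mecom followed with 1.92, from 9.09 and 11.2 CPM in WT and 7.99 and 7.91 in Y665H to 33.3 and 38.3 in Y665F (edgeR adjusted p = 0.0867). Both genes were highest in the Y665F libraries without overlap. Mecom, with 4 and 7 UMIs in WT and 3 and 4 in Y665H, could pass the filter on low counts only through Y665F. Its place among the 8 genes tested rests on those libraries. Ifitm3 differed by 1.49 and Hlf by 0.96. Meis1, at 152 and 65.5 CPM in WT and 155 and 131 in Y665F, overlapped between genotypes and differed by 0.62. The median over the 8 genes was 0.79 and that over all genes -0.01. Over the alternatives run, the log2 differences ranged from 0.54 to 1.22 for Hlf and from 1.59 to 2.36 for Mecom. For Ifitm1 they ranged from 1.40 to 2.82 and for Ifitm3 from 1.15 to 1.90. Y665H and WT did not differ in any of the 8 genes by edgeR or DESeq2 in this gate (0% of all genes by edgeR). Before adjustment, 0 of the 8 had an edgeR p below 0.05, against 281 of the 7390 genes. Between Y665F and Y665H edgeR called none of the 8 either, where 0.677% of all genes were called and 0.257% as higher. Before adjustment, 5 of the 8 had an edgeR p below 0.05, as did 1388 of the 7390 genes.

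Ifitm1 and Ifitm3 were also counted in barcodes of the named lineages, and values are set beside those of the B cell reference. In the reference Ifitm1 stood at 83.0 and 71.5 CPM in WT, 88.2 and 155 in Y665H, and 816 and 679 in Y665F. In granulocyte-monocyte barcodes Ifitm1 stood at 380 and 346 CPM in WT, 354 and 525 in Y665H, and 2143 and 1030 in Y665F, above the reference of its own library in all 6. In erythroid barcodes it was at 68.5 and 132, 81.3 and 223, and 379 and 576 CPM. These values were below the reference in both Y665F libraries and in replicate 1 of WT and of Y665H, and above it in the other libraries. Erythroid barcodes can be deeper (in WT replicate 1 a median of 7472 UMIs against 2381 in the reference), which lowers the CPM of free transcripts. The part of free transcripts in the erythroid values was not tested. Ifitm3 was abundant in megakaryocyte barcodes of every genotype, at 953 and 809 CPM in WT, 896 and 637 in Y665H, and 1174 and 800 in Y665F, and there the genotypes overlapped. The reference held Ifitm3 at 214 and 183, 166 and 214, and 606 and 650 CPM. Meis1 in megakaryocyte barcodes stood at 144 and 123 CPM in WT (13 and 7 UMIs), 58.9 and 72.1 in Y665H, and 109 and 135 in Y665F. WT and Y665F overlapped there. The part of the higher megakaryocyte markers of Y665F in the Meis1 difference over all barcodes was not tested.

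**Figure D3:**
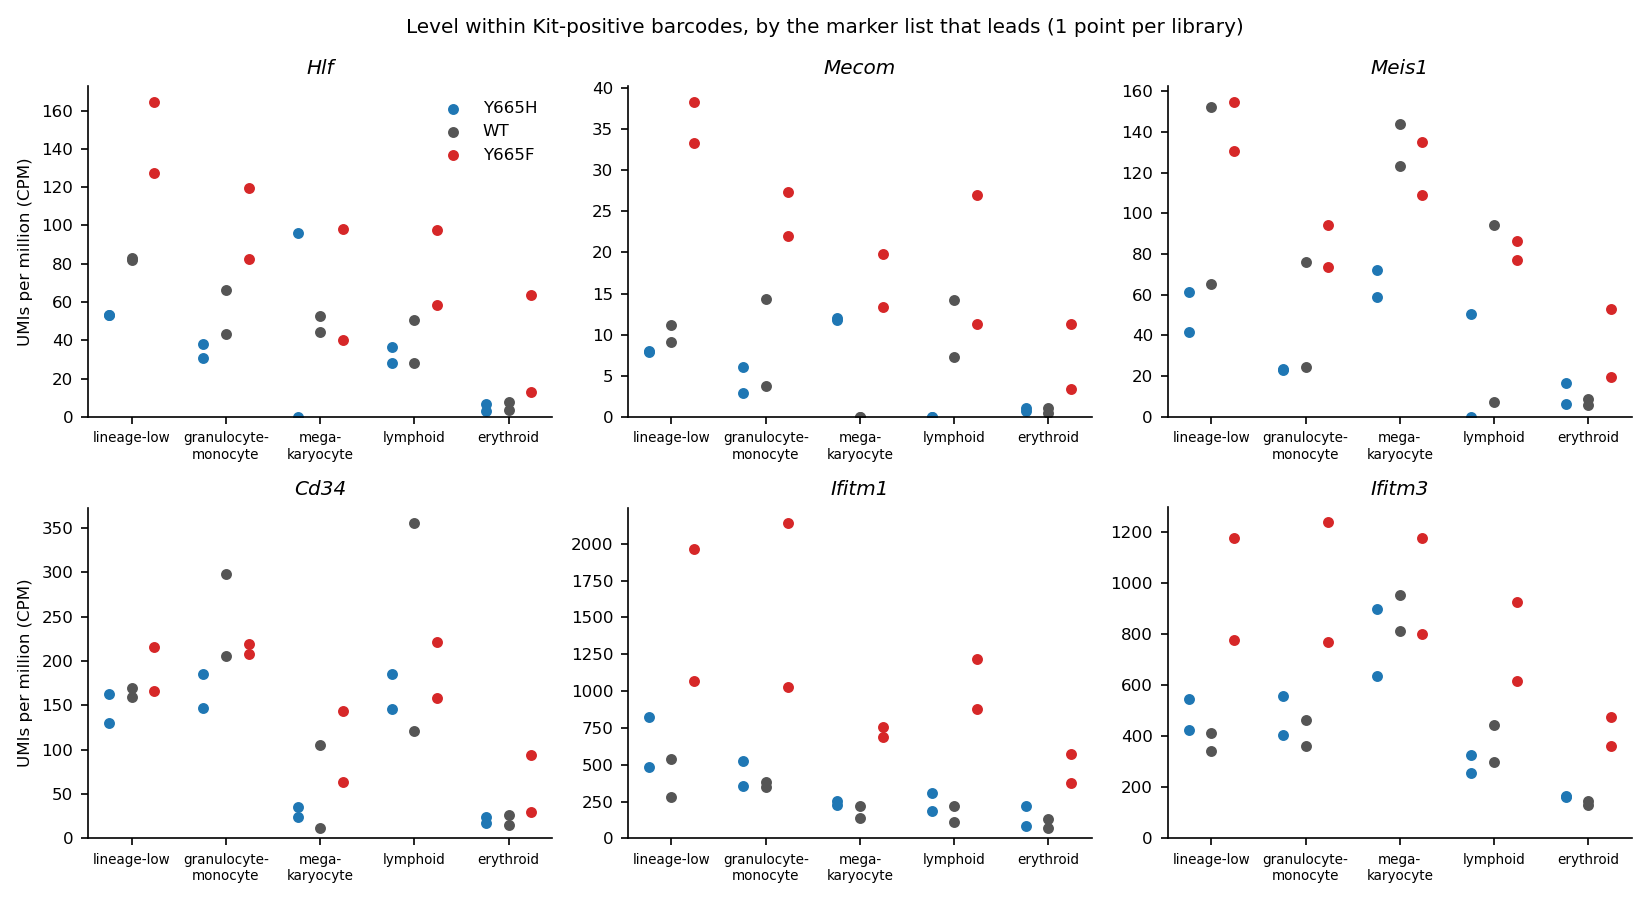
Level of 6 of the genes within Kit-positive barcodes, in CPM, by the lineage marker list that leads in the barcode, with 1 point per library and colors for Y665H, WT and Y665F. Hlf and Mecom are highest in lineage-low barcodes of Y665F (Hlf 127 and 165 CPM) and lower in erythroid barcodes, while Ifitm3 in megakaryocyte barcodes overlaps between genotypes.

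Transcripts free in the suspension are counted in every droplet, and B cells, which are not known to carry Hlf or Mecom, served as a reference, although early B cells can carry Cd34. Barcodes with 2 or more Cd79a UMIs and no Kit UMI numbered 56 and 272 in WT, 114 and 126 in Y665H, and 400 and 89 in Y665F. Doublets were not called, so a reference barcode can also hold a second cell. Hlf was detected in 6.40% and 5.30% of all barcodes in WT, 4.10% and 3.77% in Y665H, and 15.7% and 23.2% in Y665F. In the Cd79a-positive barcodes the shares were 0% (0 of 56, which allows up to 5.36%) and 0.368% in WT, 1.75% and 0.794% in Y665H, and 7% and 21.3% in Y665F. The median depth of the Cd79a-positive barcodes was 2381 and 1784.5 UMIs in WT, 2048.5 and 1576.5 in Y665H, and 1437 and 2298 in Y665F, against 1663 and 1831, 2809 and 1617, and 2347.5 and 2245 UMIs over all barcodes. In Y665F replicate 2 the interval of the reference share (exact 95% interval 13.4% to 31.3%) thus covered the share of the library as a whole. An Hlf UMI alone therefore did not set a barcode of that library apart from the reference. In Y665F replicate 1 the share over all barcodes was above that of the reference (interval 4.70% to 9.96%), though its reference barcodes were shallower.

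Other genes differed in this respect. In Y665F replicate 2, Mecom was detected in 6.04% of all barcodes and 6.74% of the reference barcodes, Cd34 in 37.5% and 37.1%, and Ifitm3 in 75.3% and 75.3%. Meis1 was detected in 21.4% of all barcodes against 10.1% of the reference (interval 4.73% to 18.3%), and Hoxa9 in 9.82% against 3.37% (0.701% to 9.54%). In Y665F replicate 1 the pairs were 4.84% and 1.5% for Mecom, 30.4% and 13.8% for Cd34, and 74.5% and 56.8% for Ifitm3. In WT, Ifitm3 was detected in 41.7% and 37.5% of all barcodes and in 30.4% and 25.7% of the reference barcodes. Levels summed over a library are not altered by where free transcripts land, whereas gates and per-barcode shares are.

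**Figure D4:**
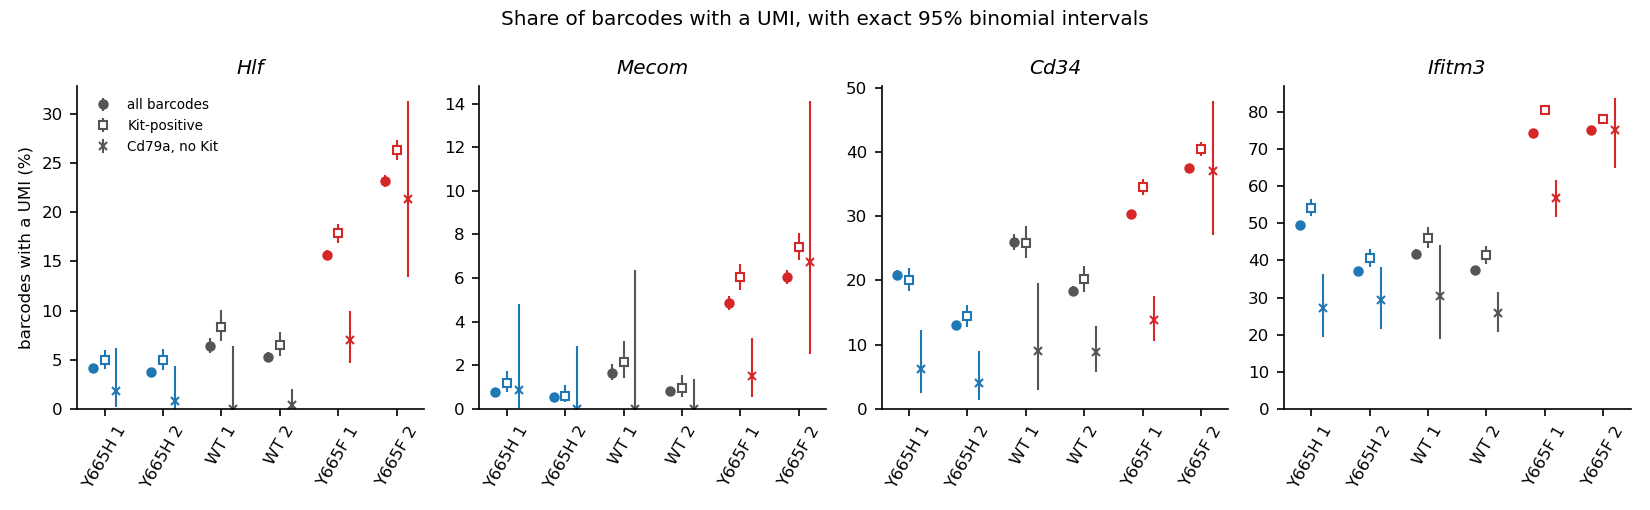
Share of barcodes with at least 1 UMI of a gene, in percent with exact 95% binomial intervals for counting error, for all barcodes, Kit-positive barcodes and Cd79a-positive barcodes without Kit. For Hlf in Y665F replicate 2, the Cd79a-positive barcodes are close to the whole library (21.3% against 23.2%), whereas in Y665F replicate 1 they lie lower (7% against 15.7%), and intervals of the small Cd79a-positive sets are wide.

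Barcodes in which Hlf was found together with a Kit UMI numbered 102 and 104 in WT, 101 and 83 in Y665H, and 1067 and 1925 in Y665F. Kit-positive barcodes with and without Hlf were compared within each library, as a description over cells. In WT, Mecom CPM was 13.6 and 10.1 times as high in Hlf-positive barcodes, Meis1 4.04 and 2.69 times and Cd34 3.62 and 1.498 times. These WT values rest on few molecules for Mecom (14 and 6 UMIs). In Y665H the ratios were 6.10 and 1.998 for Mecom (5 and 1 UMIs), 3.48 and 1.798 for Meis1, and 2.63 and 1.53 for Cd34. In Y665F they were 2.70 and 1.27 for Mecom, 1.47 and 1.05 for Meis1, and 1.37 and 1.11 for Cd34. All 3 ratios were lowest in Y665F replicate 2, the library whose reference barcodes held most Hlf, while Y665F replicate 1 was above Y665H replicate 2 for Mecom. Among 2762 genes with at least 10 UMIs in the Hlf-positive barcodes of every library, those with the highest ratio in the lowest library included Agpat2 (1.52 to 2.21 over the 6 libraries), Ly6a (1.498 to 8.59), Ifitm1 (1.42 to 3.94), Pdzk1ip1 (1.41 to 3.29), Shisa5, Zfp608, Gng11, Ypel3 and Card19. Ly6a encodes the SCA-1 antigen used to sort mouse stem cells. These ratios share the depth of the barcodes they come from.

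A Kit-positive barcode of WT or Y665H held a median of 1 of the 10 genes in each library, and one of Y665F held 3 in both libraries. None of the 10 was seen in 25.2% and 32.1% of Kit-positive barcodes in WT, 24.5% and 32.6% in Y665H, and 4.12% and 2.82% in Y665F. The share with 5 or more was 3.44% and 0.688%, 1.66% and 0.894%, and 8.87% and 9.76%, so WT replicate 1 stood between WT replicate 2 and Y665F. In the reference barcodes Ifitm1 was detected in 17.9% and 9.19% in WT, 7.89% and 17.5% in Y665H, and 62% and 68.5% in Y665F, and Ifitm3 in 30.4% and 25.7%, 27.2% and 29.4%, and 56.8% and 75.3%. Free transcripts of these genes can enter the counts of genes per barcode, and their part in the difference was not tested.

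Shares of barcodes were tested for the order Y665H, WT, Y665F with the Jonckheere-Terpstra statistic (two-sided, exact permutation over the 90 assignments of 6 libraries), which can give no p below 0.0222, and p-values were adjusted over 4 shares. Barcodes with 2 or more of Hlf, Mecom, Procr and Fgd5 made up 0.860% (exact 95% interval 0.609% to 1.18%) and 0.420% (0.310% to 0.557%) in WT, 0.255% (0.168% to 0.371%) and 0.180% (0.113% to 0.272%) in Y665H, and 2.53% (2.31% to 2.77%) and 2.95% (2.71% to 3.20%) in Y665F. The libraries followed the order without overlap, and this gave the smallest exact p possible, 0.0222, or 0.0889 after adjustment. With 1 share alone at that floor, the adjusted p cannot fall below 0.05. The genes and tests were chosen with earlier results of these data known, so this p is no independent check of the order. Thinned to 1000 UMIs, the shares were 0.446% and 0.170% in WT, 0.106% and 0.0633% in Y665H, and 0.604% and 0.646% in Y665F, with the same order and the same exact p, while thinning left out 28.9% and 17.6%, 19.9% and 22.5%, and 22.5% and 0% of barcodes. Intervals cover counting error only.

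The other shares were less ordered. Kit-positive barcodes were 27.6% and 13.998% in WT, 19.4% and 13.7% in Y665H, and 32.1% and 39.0% in Y665F (exact permutation p = 0.0667, adjusted 0.0889). WT replicate 1 was close to Y665F replicate 1, and after thinning the values were 13.9% in both (exact permutation p = 0.333). Barcodes with both Kit and Ly6a were 1.40% and 0.526%, 0.840% and 0.671%, and 5.49% and 5.73% (exact permutation p = 0.178), and 0.318% and 0.223%, 0.224% and 0.264%, and 1.201% and 1.206% after thinning. Y665F was highest in both forms, whereas WT and Y665H overlapped. Among Kit-positive barcodes, 1.31% and 0.313% in WT, 0.536% and 0.298% in Y665H, and 3.30% and 3.84% in Y665F held 2 or more of the 4 genes (exact permutation p = 0.0667). After thinning these were 0.913% and 0.168%, 0.359% and 0.304%, and 0.498% and 0.790%, so WT overlapped both mutants (exact permutation p = 0.578). No share passed after adjustment. The Cd79a-positive reference barcodes held Hlf in both Y665F libraries, at 43.2 and 94.1 CPM. The part of free transcripts in these shares was not tested.

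**Figure D5:**
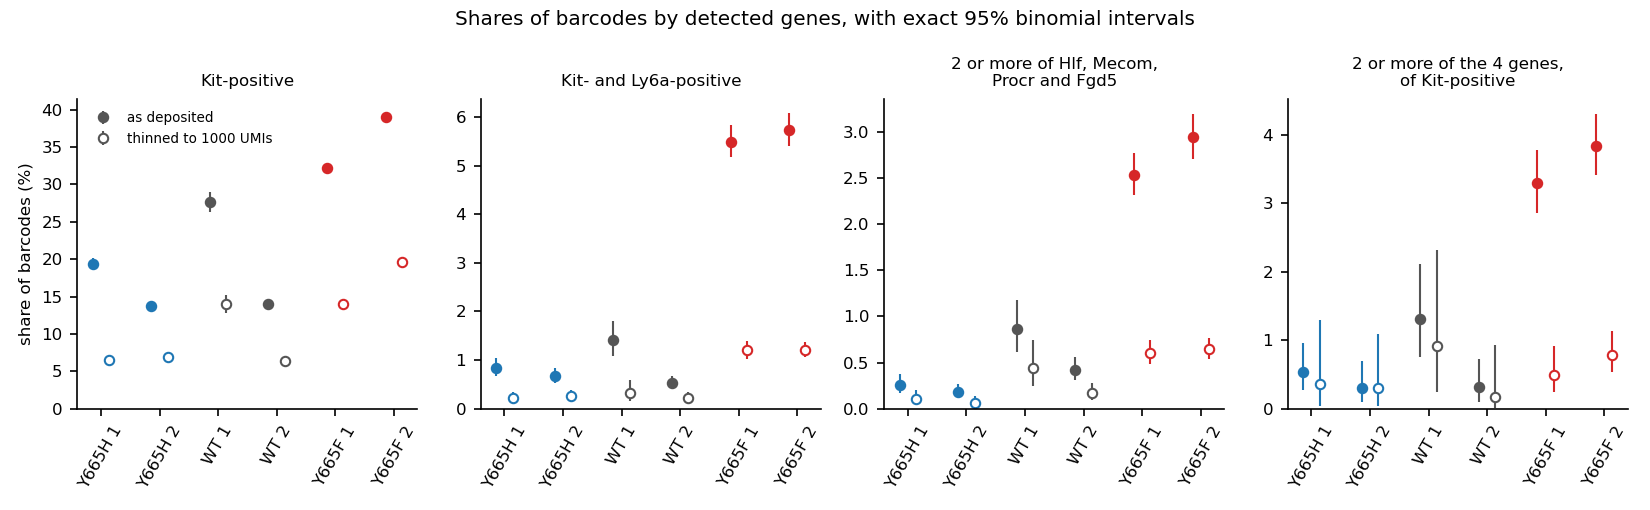
Shares of barcodes defined by detected genes in each BM library, in percent with exact 95% binomial intervals, as deposited (filled) and after thinning every barcode to 1000 UMIs (open). The share with 2 or more of Hlf, Mecom, Procr and Fgd5 keeps the order Y665H, WT, Y665F in both forms, and for the share among Kit-positive barcodes WT and Y665H overlap as deposited and WT overlaps both mutants after thinning.

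A wider list of 25 further stem cell genes was measured in the same fits. In Y665F against WT over all barcodes, 11 of the 25 were called as higher (7.85% of all genes) and 0 as lower, with a median of 0.92 (0.03 over all genes). Among the increases were those of Mycn (2.28, SE 0.247), a MYC family factor, from 8.96 and 10.3 CPM in WT to 47.6 and 58.9, and Esam (2.15), an adhesion molecule of stem cells, endothelium and platelets. Ly6a (1.81) went from 17.4 and 17.8 CPM in WT to 80.2 and 58.4, and Vwf (1.80), which marks platelet-biased stem cells and megakaryocytes, and Myct1 (1.66) were called too. Vwf and Esam are also transcribed in megakaryocytes and endothelium, whose marker lists were highest in Y665F too, and their part in these values was not tested. In Kit-positive barcodes 10 of the 25 were higher (7.22% of all genes) and 0 lower, with a median of 0.95. In Y665H against WT, edgeR called 0 of the 25 over all barcodes, and the median was -0.13.

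The genes related to Ifitm1 and Ifitm3 did not move as a block. Of 5 other Ifitm genes, Ifitm6 was higher in Y665F (log2 difference 2.44, SE 0.371, edgeR adjusted p = 0.000419) and Ifitm10 was lower (-2.70, SE 0.522, edgeR adjusted p = 0.00182). Ifitm6, a myeloid member of the family, went from 3.48 and 3.97 CPM in WT to 32.9 and 12.8. Ifitm10 was sparse in every library, at 1.10 and 0.831 CPM in WT and 0.197 and 0.121 in Y665F. It could pass the filter on low counts only through WT and Y665H. Of 16 interferon-induced genes, 2 were called as higher, Iigp1 (1.77) and Gbp2 (1.51), which encode interferon-induced GTPases, and 1 as lower, a total of 3 of 16 where 16.2% of all genes were called. The lower gene was Irf7, the factor that amplifies type I interferon, with 29.4 and 17.7 CPM in WT and 12.7 and 7.94 in Y665F (log2 difference -1.31, edgeR adjusted p = 0.0142). The call was lost without WT replicate 1, without Y665F replicate 2 and after thinning. The median of the 16 genes was 0.52. In Kit-positive barcodes Iigp1, Gbp2 and Ifi27l2a were called as higher and Irf7 as lower, which is 4 of 16 genes where 14.6% of all genes were called. Thinning ended the calls of Iigp1, Ifi27l2a and Irf7, and a Kit minimum of 2 UMIs that of Gbp2. The Irf7 call also ended without WT replicate 1, without Y665F replicate 2 or without the barcodes of highest UMI count.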

How the data were processed

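Droplet libraries of 6 bone marrow samples (WT, Y665H and Y665F, 2 each) were analysed. The deposited files hold raw UMI counts per gene and barcode, made by the authors with Cell Ranger on GRCm38 (5.0 in the submitters' processing notes, with Seurat 4.0, and 6.0.0 in the file headers). The labels name a 3′ kit and the methods a 5′ kit. No barcode was removed, and doublets were not called. Counts were summed per library and gate and tested in R 4.3.3 by edgeR 4.0.16 (limma 3.58.1) with its quasi-likelihood F-test, TMM, filterByExpr and all 6 libraries in 1 model. A log2 fold change is set on TMM-scaled libraries and can differ from the ratio of CPM values, and its SE is its size divided by the square root of F. Kit-positive barcodes had 1 or more Kit UMIs. Thinning drew 1000 UMIs per barcode without replacement and left out shallower barcodes. DESeq2 1.42.0 was an alternative, as were RLE size factors, no filter on low counts, a replicate block, removal of each library, a quality filter (200 genes, 10% mitochondrial UMIs), removal of the barcodes of highest UMI count and a Kit minimum of 2 UMIs. Shares and exact binomial intervals were computed in scipy 1.17.1 and pandas 2.3.3 (Python 3.11.15, numpy 2.4.6). Coordinates are those of GENCODE vM21 on GRCm38. The fits of Y665F against WT over all and over Kit-positive barcodes were also run on simulated counts, with fewer changed genes than were called here. The lineage-low gate and the interaction were not simulated. All 10 genes are described whatever their values. Of each other list, the called genes are counted and up to 6 named by size. Some items that these rules would name are not reported here. The members, lists and tests were chosen with earlier results of these data known. Lymph node and spleen libraries entered no test.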

Additional observations from a re-analysis of the deposited data

Results flagged for a closer look

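Some CPM ratios of Y665H to WT, each taken between libraries of the same replicate number, went in opposite directions in replicates 1 and 2, which also differ in sex. These ratios leave out the TMM factors of the tests (over all barcodes 1.149 and 0.915 in WT, 0.870 and 0.834 in Y665H). Scaling by them raises every ratio, in Kit-positive barcodes too. The Ifitm1 and Ifitm3 ratios below then no longer go in opposite directions. Over all barcodes this was so for Fgd5, at 0.332 and 1.22, for Ifitm1, at 0.926 and 1.59, and for Ifitm3, at 0.988 and 1.11. Fgd5 had at most 16 UMIs in each of these libraries. In Kit-positive barcodes it was so for Mllt3, at 1.01 and 0.894, for Meis1, at 0.359 and 1.04, and for Ifitm1, at 0.997 and 1.53. The difference between the replicates was not tested, and sex, replicate number and library cannot be told apart.

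Spleen, which had 1 library per genotype and entered no comparison, held some of these transcripts at 2 or more times the WT level in both mutants. Ifitm1 stood at 23.8 CPM in WT spleen, 210 in Y665H and 88.4 in Y665F, and Ifitm3 at 42.6, 184 and 141 CPM. Cd34 was at 0.148 CPM in WT (6 UMIs), 2.39 in Y665H (113 UMIs) and 2.52 in Y665F (93 UMIs). Hlf was at 0.593, 1.27 and 1.44 CPM, and Hoxa9 at 0.173, 0.741 and 0.515 CPM (7, 35 and 19 UMIs). For Ifitm1 and Ifitm3 the Y665H library was the highest of the 3 in spleen, whereas in BM the Y665F libraries were. With 1 library per genotype these differences have no replicate check.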

How the results depend on the processing

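Over all barcodes, 5 of the 6 calls between Y665F and WT (Hlf, Mecom, Fgd5, Meis1 and Ifitm1) held under all 14 alternatives. The 7 calls against Y665H over all barcodes ranged from 4 to 7 when 1 library was left out. In Kit-positive barcodes, 8 members could be tested after thinning, which called 0 of them between Y665F and WT and 1 (Mecom) between Y665F and Y665H, where leaving out 1 library gave 4 to 8. In lineage-low barcodes, 0 calls between Y665F and WT became 2 with DESeq2, 2 without the filter on low counts, 1 with the replicate block and 0 to 4 without 1 library, and 0 between Y665H and WT became 0 to 1. No share had an adjusted exact p below 0.05 under the alternatives run, and Y665F shares averaged above Y665H shares in each, a difference that does not use WT. With 1 library left out, or with blocked permutations, the exact p stays above 0.05 for any values. Those alternatives could therefore not pass. Libraries with the same replicate number share sex, and no label ties them to a litter, batch or day. Their deviations over all barcodes correlated at 0.306 (WT and Y665H), 0.0437 (WT and Y665F) and 0.305 (Y665H and Y665F) over all genes, and at 0.242, -0.0614 and 0.208 without sex-linked genes, so they were not treated as pairs. The replicate block changed no other count of members, and blocked permutations of shares cannot go below an exact p of 0.0556.

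Small differences changed sign. Hoxa9 between Y665F and WT was -0.014 without barcodes of highest UMI count and -0.24 thinned over all barcodes (-0.14 to 0.25 leaving out 1 library), -0.51 thinned in Kit-positive barcodes (-0.061 to 0.35), and -0.55 thinned in lineage-low barcodes (-0.15 to 0.78, with Mllt3 at -0.36 to 0.090). Between Y665H and WT over all barcodes, thinning gave 0.033 for Fgd5 and -0.065 for Mllt3, and leaving out 1 library gave -0.997 to 0.25 for Procr, -1.06 to 0.32 for Fgd5, -0.17 to 0.41 for Mllt3, -0.34 to 0.065 for Hoxa9 and -0.12 to 1.13 for Ifitm1. In Kit-positive barcodes these were -0.94 to 0.018 for Hlf, -0.87 to 5.12 for Fgd5, -0.13 to 0.46 for Mllt3 (-0.27 thinned) and -0.14 to 1.13 for Ifitm1. In the interaction, a Kit minimum of 2 UMIs gave -0.022 for Mecom, -0.45 for Fgd5 and 0.053 for Meis1, Mllt3 was 0.028 without barcodes of highest UMI count, Hoxa9 was -0.28 thinned, and leaving out 1 library gave -0.18 to 0.028 for Hlf and -0.096 to 0.018 for Meis1. The cause was not tested. Over all genes, calls between Y665F and WT fell from 2258 to 1399 without Y665F replicate 2 and 762 thinned, and in Kit-positive barcodes from 1743 to 852 and 12. Calls between Y665F and Y665H fell from 3551 to 2108 without Y665H replicate 1 over all barcodes, and in Kit-positive barcodes from 3014 to 1549, to 1954 without Y665F replicate 2 and to 57 thinned. Between Y665H and WT, 0 calls became 61 over all barcodes, 136 in Kit-positive and 698 in lineage-low barcodes without WT replicate 2. The 33 calls between Y665F and WT in lineage-low barcodes ranged from 7 to 608.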

Other observations

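Mllt3 was also present outside marrow, at 75.9 to 111 CPM in the 7 lymph node libraries and 79.0 to 109 CPM in the 3 spleen libraries. Mecom and Cd34 were at 0 in all 7 lymph node libraries, and Ifitm3 was at 6.496 to 19.3 CPM there. Stat5b itself stood at 26.3 and 19.3 CPM in WT marrow, 16.6 and 16.7 in Y665H, and 39.6 and 49.3 in Y665F (log2 difference between Y665F and WT 0.82, edgeR adjusted p = 0.00862, n = 2 per genotype). The eosinophil list (Prg2, Epx, Ear1, Ear2 and Ear6) summed to 0.366 and 1.23 CPM in WT, 3.06 and 2.73 in Y665H, and 129 and 45.7 in Y665F, and thus differed with genotype beside the stem cell genes.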
